A study of Mus musculus with 28 samples.

Results

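ICRF-193, an inhibitor of DNA topoisomerase II, was compared with its solvent DMSO in neurons made from mouse embryonic stem (ES) cells and collected at the stage labelled TN day 5. The comparison takes the arrays titled ICRF193_1 and ICRF193_2 against DMSO_1 and DMSO_2, 4 of the 28 arrays of the series, over all 19938 genes measured. All cells were of strain 129SvEv. The labels spell out neither TN nor a genotype for the TN day 5 cells, and name no separate cultures. Both groups received fresh solvent or 50 µM ICRF-193 every 24 h, starting at TN day 2 and ending at TN day 5. Further groups of the series served for comparison: cortical glutamatergic neurons taken at E16.5 of embryonic life and given DMSO or ICRF-193 (3 arrays each, days of treatment not stated), and wild-type and Top2β knockout cells at TN day 6 (3 arrays each) and TN day 2 (2 arrays each). The question set by the series is which genes change when topoisomerase II is inhibited in neurons.

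Topoisomerase II passes one DNA duplex through a transient break in another and so removes the supercoils and tangles that transcription and replication create. Vertebrates have an α enzyme, encoded by Top2a and made by dividing cells, and a β enzyme, encoded by Top2b, which stays on in postmitotic neurons. ICRF-193, a bisdioxopiperazine, holds both enzymes in a closed clamp around DNA without trapping a cut strand. Many genes for neuronal adhesion, axon guidance and synapses span very long stretches of DNA, and RNA polymerase depends on release of torsion while it copies them.

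Levels are log2 values as deposited. In the paragraphs that follow, levels of a gene stand in the order DMSO_1, DMSO_2, ICRF193_1, ICRF193_2, and a change is the log2 difference of ICRF-193 minus DMSO with its standard error (n = 2 arrays a group). Adjusted p-values come from limma with Benjamini-Hochberg adjustment over all genes, and a gene was called when its value was under 0.05. Standard errors and p-values use a spread of each gene estimated over all 12 groups of 28 arrays, not over the 4 TN day 5 arrays alone. The labels do not say that arrays came from separate cultures, so these p-values measure the spread between arrays, which may be technical. The medians of the 4 arrays over all probe sets lay between 6.34 and 6.43. Gene levels correlated across genes at r = 0.992 within the DMSO pair, 0.99 within the ICRF-193 pair and 0.974 to 0.985 between the groups. A difference above 1 log2 unit separated the DMSO arrays at 55 genes, the ICRF-193 arrays at 38 genes and the group means at 359 genes.

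The cells carried the RNA of neurons in both groups. Tubb3, which encodes neuronal β-tubulin, read 11.71, 11.80, 11.75 and 11.49, with a change of -0.13 (adjusted p = 0.584). Dcx, a microtubule protein of young neurons, read 12.22, 12.15, 12.28 and 12.35. Elavl3, an RNA-binding protein of neurons, and Stmn2, a regulator of microtubules in growing axons, were likewise not called, at 0.20 and 0.18. Of the other neuron markers, Syt1 and Map2 were called lower, at -1.58 and -0.67. Snap25 and Rbfox3 changed by -0.28 and -0.25 and were not called. Slc17a6, the vesicular glutamate transporter of many excitatory neurons, read 9.81, 10.06, 8.41 and 8.37 and fell by 1.54 (adjusted p = 0.0009). The progenitor markers Fabp7 and Sox2 were also clearly expressed in the DMSO arrays, at 8.70 or above. The fibroblast markers Dcn and Col3a1 had means of 10.05 and 10.31 in the DMSO group. In wild-type cells of the other experiment they had means of 9.66 and 9.97 at TN day 2 and of 6.69 and 7.88 at TN day 6.

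With ICRF-193, losses were more numerous and deeper than gains. Of the 19938 genes, 1271 were called lower (6.37%) and 501 higher (2.51%). Among the lower genes, 318 lost at least 1 log2 unit and 62 at least 2, whereas 24 genes gained at least 1 and 0 gained 2. The largest fall was that of Fabp7, the fatty acid-binding protein of radial glia, which went from 9.92 and 11.31 to 5.34 and 5.43, a change of -5.23 ± 0.52 (adjusted p = 4.42e-07). In RNA from whole cultures, fewer cells of a type and less RNA per cell cannot be told apart. The largest rise was that of Lncenc1, a long noncoding RNA known from ES cells, which went from 6.18 and 6.31 to 7.84 and 8.18, a change of 1.76 ± 0.26 (adjusted p = 0.000117). The median change was 0.02 over all genes, 0.52 over those called higher and -0.60 over those called lower. The arrays of the groups did not overlap for 1767 of the 1772 called genes, and for 9192 of all genes.

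The number of calls depended on single arrays and on how the spread was estimated. It was 684 without DMSO_2, 868 without ICRF193_1, 1876 without DMSO_1 and 2291 without ICRF193_2, and 385 when only the 4 arrays were fitted (342 lower, 43 higher). Quantile normalization brought the split to 1101 lower and 960 higher, or 46.6% higher against 28.3%, so the excess of losses over gains rests in part on the scale of the deposited values.

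**Figure D1:**
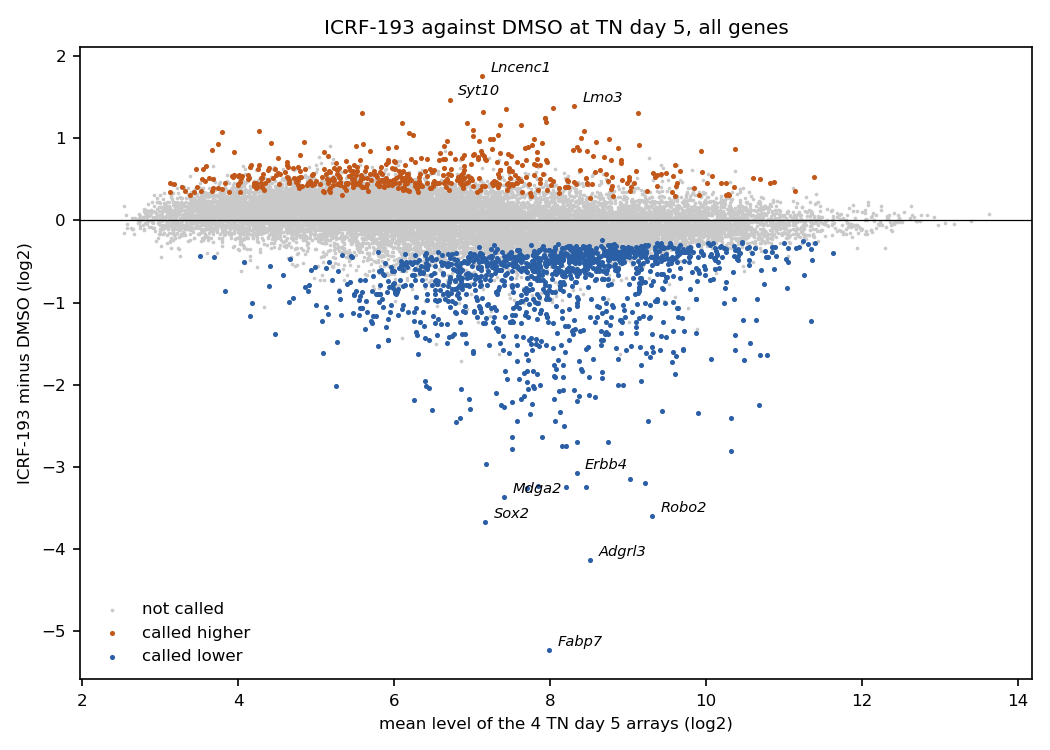
Change with ICRF-193 at TN day 5 (vertical axis, log2 difference of the group means) against the mean level of the 4 arrays (horizontal axis, log2), 1 point per gene. Blue points are the 1271 genes called lower, orange points the 501 called higher, and 9 of the largest changes are named; falls reach -5.23 and rises 1.76.

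Of the topoisomerases themselves, 1 fell. Top2a read 7.60, 8.45, 5.69 and 5.46, a change of -2.45 ± 0.21 (adjusted p = 6.13e-08). Over the alternative ways of processing listed at the end, its change ranged from -2.88 to -1.12, so the size of the fall is uncertain. Top2b read 10.86, 10.81, 10.58 and 10.71, a change of -0.19 ± 0.24 that was not called (adjusted p = 0.678). The RNA of the β enzyme was thus high in all 4 arrays, and that of the α enzyme was lower in both treated arrays than in either DMSO array. Top1 and Top1mt, the nuclear and mitochondrial type I enzymes, changed by -0.08 and 0.07, and Top3a and Top3b by -0.17 and -0.04, none of them called. Tdp2, which removes topoisomerase II from DNA ends, changed by -0.15 and was not called. Tdp1, which does the same chiefly for topoisomerase I, fell by 0.49 (adjusted p = 0.0156). Its call was lost without DMSO_1, without DMSO_2 or without ICRF193_1, and its highest adjusted p over the 12 alternatives tried was 0.353. In what follows, "adjusted p up to" is that highest value over those of the 12 that included the gene.

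Genes of cell division were lower with ICRF-193. In a list of mitosis and G2/M genes, 20 of 30 measured members were called lower and 0 higher, all 30 had a change below 0, and the median change was -0.78 against 0.02 over all genes. Mki67, the Ki-67 protein of the mitotic chromosome surface, read 6.68, 7.54, 5.83 and 5.16, a change of -1.62 ± 0.23 (adjusted p = 4.71e-05). Tpx2, which activates Aurora A kinase on the spindle, changed by -1.43 ± 0.21 (adjusted p = 0.00011). Bub1, a kinase of the spindle checkpoint, read 5.68, 6.90, 5.13 and 4.81, a change of -1.32 ± 0.25 (adjusted p = 0.00139). Of the DNA replication genes, 13 of 30 were lower and 0 higher, with a median of -0.42. Mcm3, a subunit of the replicative helicase, read 6.84, 7.51, 5.74 and 5.69 and fell by 1.46 (adjusted p = 0.000107). Mcm2, another helicase subunit, and Gins1, which joins the helicase at the fork, both fell by 0.88. Without DMSO_2, 8 replication genes were called.

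The DMSO arrays differed in these genes. The mean level of the mitosis list was 6.28 in DMSO_1 and 6.90 in DMSO_2, against 5.84 and 5.76 in the ICRF-193 arrays. Both DMSO arrays lay above both treated arrays, and the gap within the DMSO pair was larger than that within the treated pair. Without DMSO_2, 6 of the 30 mitosis genes were called and Bub1 was not among them. Without DMSO_1, 23 were called, and 3 when only the 4 arrays were fitted. What part the higher level in DMSO_2 had in the result was not tested.

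The promoters of 4 of the called mitosis genes are shown, from a list whose called members all fell. The elements marked in them are known from genes of late cell division. The 4 genes had the largest falls among the called members with a promoter sequence, which Tpx2 lacked. They are Mki67, Bub1, Prc1, which bundles microtubules at the midzone, and Kif11, the motor that pushes spindle poles apart; Prc1 changed by -1.30 and Kif11 by -1.22. Each window runs from 250 bases before to 50 bases after the start of the gene, read 5′ to 3′ on the strand of the gene, from RefSeq on build GRCm38.p6. The windows are chr7:135716330-135716629 on the minus strand for Mki67, chr2:127831810-127832109 on the minus strand for Bub1, chr7:80294201-80294500 on the plus strand for Prc1 and chr19:37376132-37376431 on the plus strand for Kif11. Capitals mark matches to the cell cycle homology region, searched as TTTGAA or TTCGAA, and to the CCAAT box, searched as CCAAT, each on both strands.
Mki67 promoter: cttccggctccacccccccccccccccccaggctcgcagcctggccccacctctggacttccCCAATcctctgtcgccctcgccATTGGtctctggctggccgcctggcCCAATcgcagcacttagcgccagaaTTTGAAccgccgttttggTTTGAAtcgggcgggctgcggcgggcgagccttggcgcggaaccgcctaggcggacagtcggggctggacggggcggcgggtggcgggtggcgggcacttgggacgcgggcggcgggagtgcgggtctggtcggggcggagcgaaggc
Bub1 promoter: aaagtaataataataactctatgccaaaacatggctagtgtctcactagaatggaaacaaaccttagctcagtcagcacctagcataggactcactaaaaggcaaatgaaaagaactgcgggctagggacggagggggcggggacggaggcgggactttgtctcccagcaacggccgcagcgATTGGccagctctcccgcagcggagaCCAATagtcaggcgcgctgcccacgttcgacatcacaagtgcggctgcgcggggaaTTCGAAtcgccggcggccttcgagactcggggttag
Prc1 promoter: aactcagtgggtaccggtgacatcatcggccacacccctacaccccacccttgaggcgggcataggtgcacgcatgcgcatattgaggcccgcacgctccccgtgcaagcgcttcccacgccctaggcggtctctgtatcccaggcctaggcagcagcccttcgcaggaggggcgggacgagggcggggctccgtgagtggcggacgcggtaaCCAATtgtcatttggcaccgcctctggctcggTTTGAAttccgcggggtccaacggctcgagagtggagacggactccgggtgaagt
Kif11 promoter: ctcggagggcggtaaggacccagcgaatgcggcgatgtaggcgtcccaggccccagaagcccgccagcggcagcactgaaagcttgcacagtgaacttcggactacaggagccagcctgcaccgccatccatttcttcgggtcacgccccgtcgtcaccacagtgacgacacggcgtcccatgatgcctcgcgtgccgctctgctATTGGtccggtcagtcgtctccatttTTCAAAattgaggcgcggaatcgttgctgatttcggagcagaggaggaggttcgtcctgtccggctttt

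The Mki67 window held 2 cell cycle homology matches and 3 CCAAT matches, and that of Bub1 held 1 and 2. The windows of Prc1 and Kif11 held 1 of each. Of the 20 called mitosis genes, 16 had a promoter in the table, and 13 of these (81.2%) held a cell cycle homology match, against 16.8% of the 15614 measured genes with a promoter. At least 2 CCAAT matches were found in 43.8% of the 16 and in 13% of the 15614. Over all genes called lower, 1018 of which had a promoter, the shares were 16.6% and 20.2%. The list as a whole had nearly the same shares as its called members, 80% and 44% of 25. A match describes the letters and is not evidence of binding.

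Many genes of neural progenitors were lower, and Fabp7 and Sox2 were among the 12 largest falls. Of 25 measured progenitor and radial glia genes, 12 were called lower and 1 higher, with a median of -0.73. The radial glia markers Pax6 and Hes5 were not called, at -0.62 and -0.19 (adjusted p = 0.202 and 0.698). Sox1 and Sox3 were not called either, at 0.02 and 0.23. Sox2, a transcription factor that maintains progenitors, read 8.70, 9.32, 5.63 and 5.05, a change of -3.67 ± 0.27 (adjusted p = 3.47e-09). Slc1a3, the glutamate transporter of radial glia and astrocytes, read 7.64, 8.59, 5.88 and 5.78, a change of -2.29 ± 0.23 (adjusted p = 4.31e-07). For Fabp7, Sox2 and Slc1a3 both treated arrays lay more than 1 log2 unit below the lower DMSO array, and DMSO_2 was above DMSO_1. The member called higher was Id4, an inhibitor of basic helix-loop-helix factors, at 0.47 (adjusted p = 0.0391), whose call was lost without DMSO_1, without ICRF193_1 or without ICRF193_2 (adjusted p up to 0.29). Without DMSO_2, 7 of the 25 were called lower. The mean level of the progenitor list was 7.62 and 8.06 in the DMSO arrays and 6.84 and 6.80 in the ICRF-193 arrays. In the Notch pathway, which keeps progenitors undifferentiated, 2 of 16 genes were called, both lower, against 6.37% lower over all genes. They were the receptors Notch2, with a change of -1.20, and Notch1, with -0.87. Notch1 lost its call without DMSO_2 or without ICRF193_2 (adjusted p up to 0.181). Of 14 astrocyte genes, 3 were lower and 1 higher. Aldoc, the aldolase of astrocytes, read 8.08, 9.36, 6.75 and 6.35, a change of -2.17 ± 0.27 (adjusted p = 7.74e-06). Fgfr3, a growth factor receptor, fell by 1.23, and Gja1, the gap junction protein connexin 43, changed by -1.07; the call of Gja1 was lost without DMSO_2 or without ICRF193_1 (adjusted p up to 0.234). Slc1a2, the other glial glutamate transporter, was called higher at 0.49, a call lost without DMSO_1, without DMSO_2 or without ICRF193_2 (adjusted p up to 0.222). The astrocyte markers Gfap and Aqp4 stood at 5.58 or less in all 4 arrays.

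Transcription factors of the neuronal lineage were lower or not called. Of 25 neurogenic factors, 7 were lower and 0 higher, with a median of -0.32. Ebf1, a helix-loop-helix factor of differentiating neurons, read 10.13, 10.04, 6.90 and 6.80, a change of -3.24 ± 0.17 (adjusted p = 1.36e-11). Pou3f2, a POU factor of neural precursors, read 8.88, 9.03, 7.16 and 7.35, a change of -1.70 ± 0.18 (adjusted p = 8.94e-07). Bcl11a, a zinc finger factor, read 10.39, 10.49, 8.75 and 8.82, a change of -1.65 ± 0.19 (adjusted p = 3.85e-06). In these 3 genes the arrays of each group differed by at most 0.19, far less than the groups. The Hox genes, which give cells their position along the body axis, had 7 of 24 members lower and 0 higher, with a median of -0.43. Hoxa2 fell by 1.0 (adjusted p = 0.000636). Hoxc6 and Hoxc5 changed by -1.32 and -0.96, and Hoxc6 lost its call without any 1 of the 4 arrays (adjusted p up to 0.162), Hoxc5 without DMSO_2 or either treated array (adjusted p up to 0.34). The count of lower Hox genes was 2 without DMSO_1, 1 without DMSO_2 or ICRF193_1, 4 without ICRF193_2 and 4 under quantile normalization. Tfap2b, a factor of the neural crest, fell by 1.52 (adjusted p = 1.67e-05), the 1 called gene of 13 on the list of crest and peripheral neurons. Over all genes 6.37% were called lower.

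Of the immediate early genes, which neurons switch on within minutes of activity, 6 of 20 were lower and 1 higher, with a median of -0.08. The shares over all genes were 6.37% lower and 2.51% higher. Fos read 7.74, 7.12, 6.12 and 5.77, a change of -1.49 ± 0.19 (adjusted p = 1.56e-05). Nr4a1, an orphan nuclear receptor, read 8.69, 8.39, 7.25 and 6.95, a change of -1.44 ± 0.13 (adjusted p = 9.8e-08). Here DMSO_1 was the higher DMSO array, unlike in the progenitor genes. Dusp6, a phosphatase that switches off ERK, fell by 0.95 (adjusted p = 4.94e-05). Nr4a2, a relative of Nr4a1, read 7.42, 7.43, 7.81 and 8.93 and was called at 0.94 (adjusted p = 0.0437). That rise rested on ICRF193_2, and the call was lost without it, without DMSO_1 or without DMSO_2 (adjusted p up to 0.407).

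Adhesion molecules of neurons were the list with the lowest median on the deposited scale; under quantile normalization the mitosis list was lower, at -0.96 against -0.88. Of 51 measured members, 29 were called lower and 1 higher, with a median of -0.98. Adgrl3, latrophilin 3, an adhesion receptor that binds teneurins and FLRT proteins across the synapse, read 10.54, 10.62, 6.16 and 6.75, a change of -4.13 ± 0.17 (adjusted p = 1.02e-12). Mdga2, which binds neuroligins, read 8.84, 9.36, 5.52 and 5.93, a change of -3.37 ± 0.16 (adjusted p = 3.33e-12). Ncam2, a neural cell adhesion molecule of the immunoglobulin family, read 9.21, 9.72, 6.12 and 6.35, a change of -3.23 ± 0.15 (adjusted p = 3.96e-12). In each of these the treated arrays lay more than 2 log2 units below either DMSO array. Ctnna2, the neuronal α-catenin that ties cadherins to actin, changed by -3.15 ± 0.15 (adjusted p = 5.34e-12). The receptor phosphatase Ptprd, an organiser of synapses, read 10.72, 10.93, 7.25 and 7.99, a change of -3.20 ± 0.27 (adjusted p = 3.89e-08). Cdh9, a cadherin, was the member called higher, from 4.92 and 5.34 to 5.88 and 6.25. Of the 51 genes, 32 spanned over 300 kb, and 23 of those were lower.

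Receptors and ligands of axon guidance followed with 15 of 38 lower and 3 higher and a median of -0.47. Robo2, a receptor for the repellent Slit, read 11.10, 11.12, 7.24 and 7.78, a change of -3.60 ± 0.42 (adjusted p = 3.65e-06). Dcc, a receptor for netrin, read 9.64, 10.02, 6.45 and 6.72, a change of -3.24 ± 0.17 (adjusted p = 3.03e-11). Epha6, an ephrin receptor, changed by -2.19 ± 0.18 (adjusted p = 2.67e-08). Robo2 and Dcc were thus reduced to the range of the middle tertile of DMSO level, from the highest. The 3 members called higher were Sema3e, a semaphorin, at 0.79, the netrin receptor Unc5a at 0.71 and the ephrin Efnb3 at 0.69. Sema3e lost its call without DMSO_2 or without ICRF193_2 (adjusted p up to 0.105), and in each case 1 guidance gene was called higher.

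Paired ligands and receptors also fell together in the neuregulin system, by which axons signal to glia and interneurons. Nrg3, a ligand, read 9.23, 9.43, 5.96 and 6.21, a change of -3.25 ± 0.15 (adjusted p = 1.8e-12). Erbb4, its receptor, fell from a DMSO mean of 9.88 to 6.83 and 6.79, a change of -3.07 ± 0.17 (adjusted p = 6.6e-11). The other 6 of 8 members measured were not called. Among receptors for neurotrophins and GDNF and their sorting partners, 5 of 18 were lower and 2 higher, with a median of 0.09. The shares over all genes were 6.37% and 2.51%. Sorcs3, a sorting receptor, changed by -1.83 ± 0.19, Ntrk3, the receptor of neurotrophin 3, by -1.62 ± 0.14 and Gfra1, the GDNF co-receptor, by -1.57 ± 0.12. The receptor Ntrk2, which binds BDNF, and the sorting receptor Sorcs1 changed by -1.33 and -1.08. Ngfr, the p75 neurotrophin receptor, went the other way, from 8.02 and 7.77 to 8.89 and 8.91, a change of 1.0 ± 0.14 (adjusted p = 5.1e-05). Cntfr, the receptor of ciliary neurotrophic factor, was the other member called higher, at 0.84.

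Glutamate receptors and transporters had 10 of 23 members lower and 0 higher, with a median of -0.51. Grik2, a kainate receptor subunit, read 8.49, 9.10, 5.90 and 6.81, a change of -2.44 ± 0.21 (adjusted p = 5.57e-08). Grm7, a presynaptic metabotropic receptor, fell by 2.21 (adjusted p = 1.42e-09). Grid1, a delta receptor that binds cerebellins, fell by 1.55 (adjusted p = 2.73e-08). Of the 11 members over 300 kb, 9 were lower, and without DMSO_2 the list held 6 lower genes. In the GABA system 3 of 19 genes were lower and 3 higher, with a median of 0.00. Over all genes 6.37% were lower and 2.51% higher. Gabra5, a subunit of extrasynaptic GABA receptors, read 8.35, 9.15, 6.78 and 6.62, a change of -2.05 ± 0.25 (adjusted p = 7.02e-06). Gad2, an enzyme of GABA synthesis, rose from 8.51 and 8.59 to 9.26 and 9.31, a change of 0.74 ± 0.13 (adjusted p = 0.000935). Npy, a neuropeptide of interneurons, was called higher at 0.70, and the receptor subunits Gabra3 and Gabbr2 lower at -0.61 and -0.41. Gabra4, a receptor subunit, was called higher at 1.04, and its call was lost without DMSO_1 (adjusted p up to 0.124). Without DMSO_1, 1 gene of the list was called higher, and without DMSO_2 or without ICRF193_2, 1 was called lower.

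Ion channels and postsynaptic scaffolds moved in part. Of 32 voltage-gated channel genes, 5 were lower and 2 higher, with a median of -0.09. Under quantile normalization the counts were 7 and 7. Over all genes 6.37% were lower and 2.51% higher, and of all genes over 300 kb 44.5% were lower. Cacna2d3 and Cacna2d1, auxiliary subunits of calcium channels, changed by -2.15 ± 0.14 and -1.89 ± 0.21. Kcnma1, the large-conductance calcium-activated potassium channel, changed by -1.71 ± 0.17, and by -1.87 to -0.66 over the alternatives. The potassium channels Kcnd2 and Kcnq3 changed by -1.58 and -1.08. Cacna1a, the pore of the P/Q-type calcium channel, was called higher at 0.60 (adjusted p = 0.0147) and lost its call without DMSO_1 or without ICRF193_2 (adjusted p up to 0.177). The other channel called higher was Cacna1b, the N-type pore, at 0.46. All 5 lower channels were among the 15 that span over 300 kb. Of 21 postsynaptic genes, 4 were lower and 0 higher, with a median of -0.00, and under quantile normalization 4 were lower and 4 higher. The 4 were Lrfn5 (-2.04), Nlgn1, a neuroligin (-1.59), the scaffold gene Dlg2 (-1.02) and Il1rapl1 (-1.01). Each of the 4 was among the 8 members over 300 kb.

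Genes that all neurons express were divided. Of 27 pan-neuronal genes, 5 were lower and 4 higher, with a median of 0.01, against 6.37% lower and 2.51% higher over all genes. Syt1, the calcium sensor of synaptic vesicles, read 11.15, 11.16, 9.52 and 9.63, a change of -1.58 ± 0.15 (adjusted p = 1.95e-07). Ncam1, an adhesion molecule, fell by 1.22, and Elavl2, Map2 and Elavl4 changed by -0.72, -0.67 and -0.64. Nefm, a neurofilament subunit, rose from 7.35 and 7.49 to 8.27 and 8.23, a change of 0.83 ± 0.18 (adjusted p = 0.00402). Stmn4, L1cam and Nefl were called higher at 0.54, 0.52 and 0.50. The count of higher genes was 1 without DMSO_1 or without ICRF193_2, and 2 without DMSO_2. The mean level of the list was 10.38 and 10.47 in the DMSO pair, 10.27 and 10.37 in the treated pair, so the levels of the groups nearly met.

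**Figure D2:**
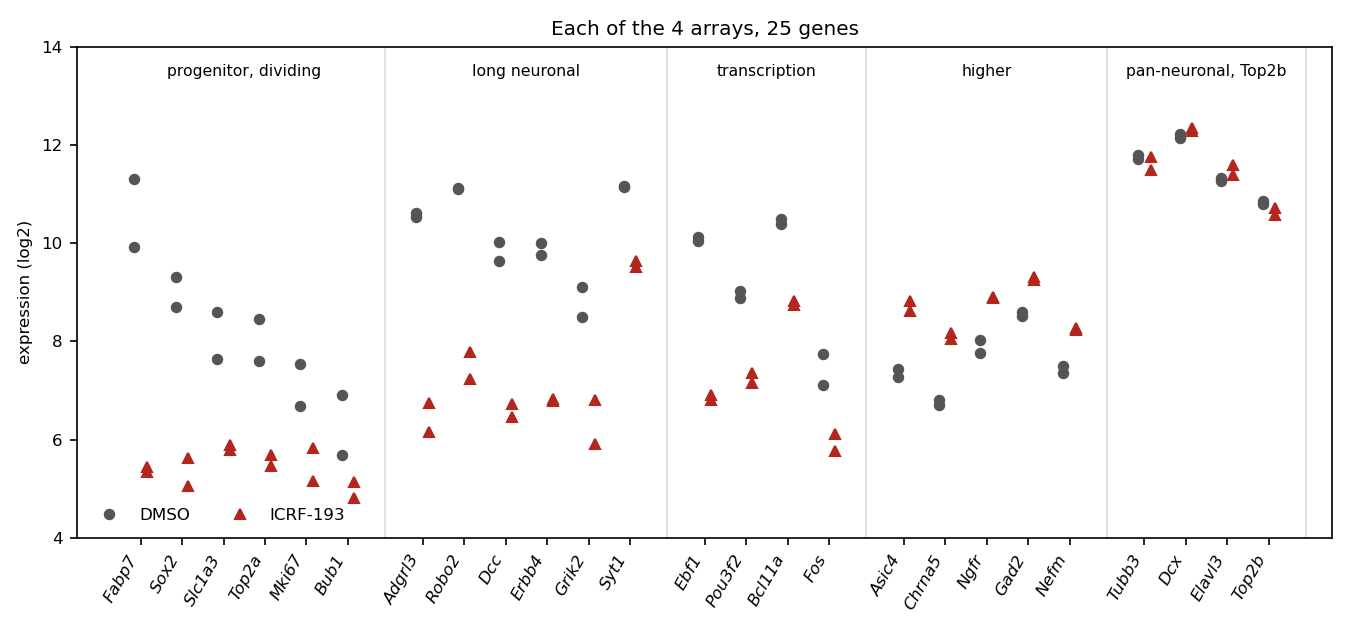
Level of 25 genes on each of the 4 arrays (vertical axis, log2; circles DMSO, triangles ICRF-193), 1 column per gene. In the progenitor, long neuronal and transcription panels every triangle lies below both circles, in the panel of higher genes above them, and Tubb3, Dcx, Elavl3 and Top2b changed by 0.20 or less.

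The genes with the largest rises were of several kinds, and none gained 2 log2 units. Syt10, a synaptotagmin of regulated secretion, read 5.86, 6.11, 6.95 and 7.96, a change of 1.47 ± 0.22 (adjusted p = 0.000104). Lmo3, a LIM-only transcription cofactor, read 7.45, 7.79, 8.72 and 9.30, a change of 1.39 ± 0.16 (adjusted p = 4.82e-06). Asic4, of the acid-sensing ion channel family, read 7.43, 7.28, 8.62 and 8.83, a change of 1.37 ± 0.13 (adjusted p = 2.77e-07). In Syt10 the treated arrays lay about 1 log2 unit apart, whereas in Asic4 the arrays of each group lay close together. Chrna5, a nicotinic receptor subunit, read 6.81, 6.70, 8.05 and 8.18, a change of 1.36 ± 0.23 (adjusted p = 0.000453). Insyn2a, a protein of inhibitory synapses, read 8.44, 8.51, 9.83 and 9.74, a change of 1.31 ± 0.10 (adjusted p = 1.18e-08). Rph3a, the vesicle protein rabphilin, changed by 1.24 ± 0.15 and Cbln2, a cerebellin that joins neurexins to their partners, by 1.20 ± 0.18. The rest of the 12 were the polarity protein gene Crb1 (1.32), the transporter gene Abca8b (1.31), Ablim1, which encodes an actin-binding protein (1.24), and Arap2, a regulator of Arf GTPases (1.18). When only the 4 arrays were fitted, Syt10 and Crb1 had adjusted p-values of 0.0543 and 0.076.

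In the lists of damage, stress and interferon genes the changes lay between -1.06 and 0.61. Of 26 p53 targets 2 were higher and 0 lower, with a median of -0.07, against 2.51% higher over all genes. Ccng1, cyclin G1, read 10.44, 10.76, 11.11 and 11.02, and Bbc3, the pro-apoptotic protein Puma, read 6.29, 6.36, 6.81 and 6.76; each rose by 0.46 (adjusted p = 0.0256 and 0.0371). Ccng1 lost its call without DMSO_1 or without ICRF193_1, and Bbc3 without any 1 of the 4 arrays (adjusted p up to 0.285 and 0.304). Of 25 genes of the DNA damage response, 6 were lower and 0 higher, with a median of -0.21, against 6.37% lower over all genes. The largest of these falls were the checkpoint kinase Chek1 at -0.77, the repair gene Brca1 at -0.57 and the kinase Atr at -0.51, and 0 of the 25 were called without DMSO_2, without ICRF193_1 or when only the 4 arrays were fitted, 1 without DMSO_1, and 2 under quantile normalization. In the ATF4 and endoplasmic reticulum stress list, 3 of 25 were lower, against 6.37% of all genes. Among genes under 10 kb in the highest tertile of DMSO level the share was 13%. The 3 were Phgdh, the first enzyme of serine synthesis, at -1.06, Atf4 at -0.64 and Xbp1 at -0.39. Xbp1 lost its call without any 1 of the 4 arrays (adjusted p up to 0.292). Without DMSO_2, 6 genes of this list were called lower. Of 16 interferon-stimulated genes 0 were called, the largest change being -0.37 for Ifit2 (limma adjusted p = 0.321), and 0 had an unadjusted p under 0.05.

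Metabolic lists showed small shifts of one sign. Over all genes 6.37% were called lower. In the highest tertile of DMSO level the share was 13% under 10 kb and 9.9% at 10 to 30 kb, with medians of -0.16 and -0.12. All 21 genes of cholesterol and fatty acid synthesis had a change below 0, and 9 were called, with a median of -0.43. Cyp51, the lanosterol demethylase, read 9.82, 10.35, 8.92 and 9.27, a change of -0.99 ± 0.16 (adjusted p = 0.000231), and Insig1, which holds back the sterol sensor, changed by -0.98. Scd1, the desaturase of fatty acids, read 6.77, 8.10, 6.22 and 6.44 and was called at -1.10 (adjusted p = 0.0152), a call lost without DMSO_2 or without ICRF193_1 (adjusted p up to 0.431). The mean level of the list was 9.50 and 10.09 in the DMSO pair, 9.16 and 9.49 in the treated pair, so DMSO_1 and ICRF193_2 all but coincided. The count was 3 without DMSO_2 or without ICRF193_1, 16 without DMSO_1 and 0 when only the 4 arrays were fitted. All 23 genes of mitochondrial complex I had a change below 0 and 10 were called, with a median of -0.27. Ndufa1 read 6.87, 7.43, 5.85 and 5.94, a change of -1.25 ± 0.14 (adjusted p = 2.51e-06), Ndufs4 fell by 0.97, and Ndufs8 changed by -0.58, a call lost without DMSO_2 (adjusted p up to 0.207). Without DMSO_2, 2 complex I genes were called, without ICRF193_1 4, and 5 under quantile normalization.

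Few genes of further cell types were called, and those calls were uncertain. The fibroblast markers Col1a1, Col1a2, Col3a1 and Dcn were not low, with DMSO means of 9.27, 9.33, 10.31 and 10.05. Of 13 oligodendrocyte, 15 endothelial and mural and 17 pluripotency genes 0 were called by limma, the largest changes being -0.52 for Pdgfra, -0.49 for Kdr and 0.60 for Dppa5a (adjusted p = 0.568, 0.576 and 0.16). At an unadjusted p under 0.05 there were 2 oligodendrocyte, 0 endothelial and 1 pluripotency genes. Of 14 microglia genes Trem2 was called, at 0.52, and its call was lost without DMSO_2 or without ICRF193_1 (adjusted p up to 0.482). In the mesenchymal and fibroblast list the median change was -0.51, and 16 of 17 had a change below 0. When only the 4 arrays were fitted, 3 of the list were called lower, beside 342 of all 19938 genes. In the main fit 1 was called, no more than the 6.37% of all genes. That gene was Dcn, decorin, which read 9.99, 10.10, 8.50 and 8.07, a change of -1.76 ± 0.53 (adjusted p = 0.0406), and which lost its call without any 1 of the 4 arrays (adjusted p up to 0.212). The mean level of the list was 7.53 and 8.14 in the DMSO pair, 7.13 and 7.24 in the treated pair, and no marker was at 0 on this scale. The gap between DMSO_1 and the treated arrays was smaller than that within the DMSO pair, and the part of these levels in the other results was not tested.

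**Figure D3:**
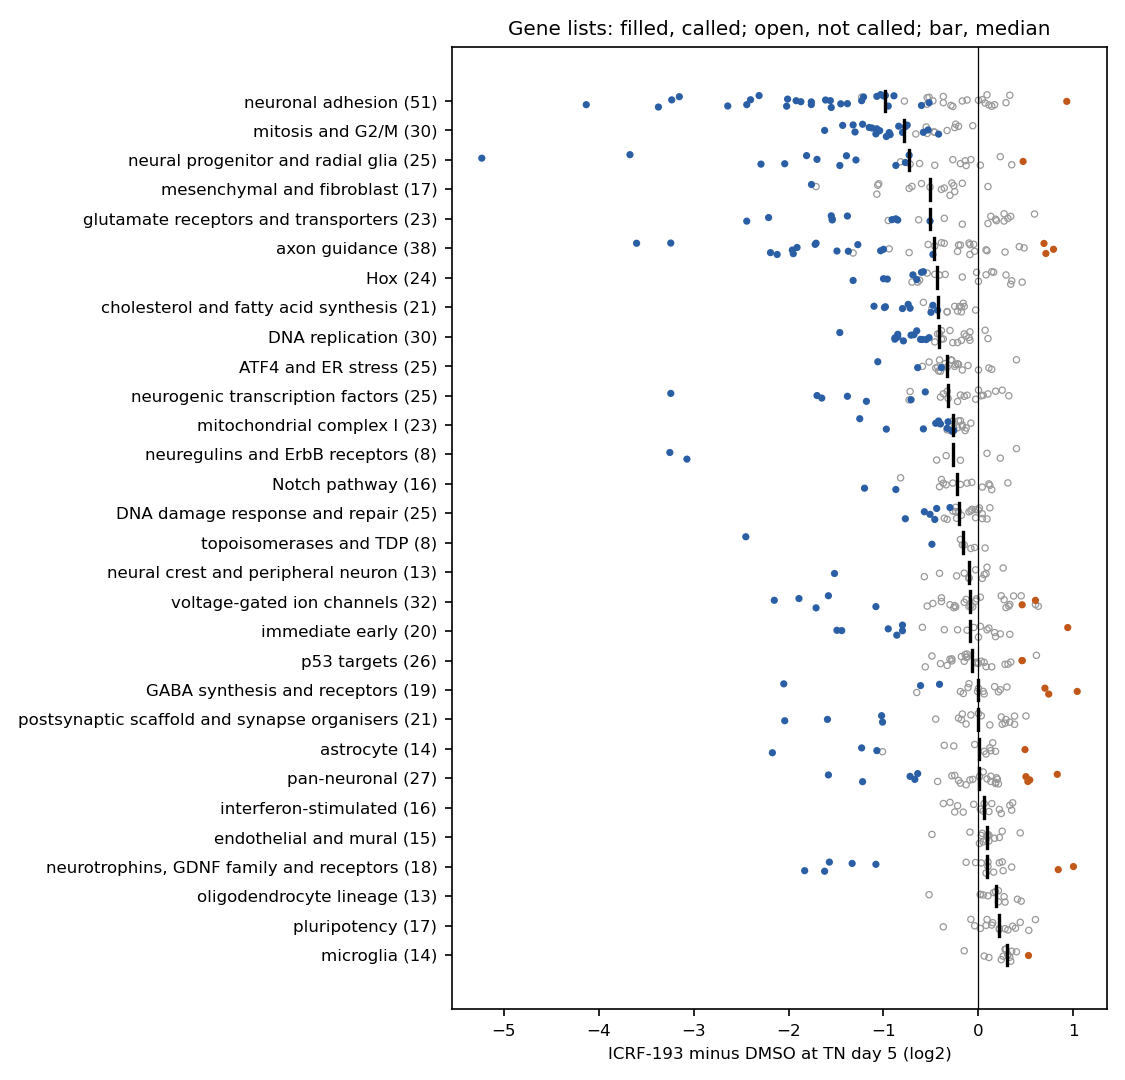
Change with ICRF-193 at TN day 5 (horizontal axis, log2) of every measured member of the 30 gene lists, with the number of members in brackets. Filled points were called (blue lower, orange higher), open points were not, and the bar is the median of the list; medians run from -0.98 for neuronal adhesion to 0.30 for microglia.

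The share of genes called lower rose with the length of the gene. The genomic span, from transcript start to end in RefSeq on GRCm38.p6, was known for 19853 genes. Genes under 10 kb were lower in 3.7% of cases, those of 10 to 30 kb in 5.3%, of 30 to 100 kb in 5.6%, of 100 to 300 kb in 11.2% and over 300 kb in 44.5% (236 of 530). The share called higher was 2.7% under 10 kb and 1.1% (6 genes) over 300 kb. The median change was 0.08 in the shortest class and -0.45 in the longest. Genes over 300 kb made up 2.67% of all genes, 18.6% of the lower genes and 51.1% (162 of 317) of those that lost at least 1 log2 unit. Across all genes the Spearman correlation of span and change was -0.19, and -0.06, -0.16 and 0.01 within the lowest, middle and highest tertile of DMSO level, so the relation was not graded over the whole range of lengths; genes are not independent replicates.

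The share called lower also rose with expression level, in long and short genes alike. Of the 270 genes over 300 kb in the highest tertile of DMSO level (above 7.78), 181 (67%) were lower and 1 higher; the share was 28.7% in the middle tertile and 6.7% in the lowest (below 5.74). Among genes under 10 kb in the highest tertile it was 13%. DMSO level comes from arrays that also enter the change, so the split was repeated, after the data were seen, on the mean over the 24 arrays outside TN day 5. It then gave 62.8%, 44.7% and 17.8% for genes over 300 kb in the highest, middle and lowest tertile, against 11%, 4.6% and 0.4% for genes of 300 kb or less. On the mean over all 28 arrays the shares were 63.7%, 43.9% and 16.7% against 10.8%, 4.8% and 0.4%. At each level, then, the long genes had the larger share. Long genes outside all 30 lists were lower in 40.1% of cases (173 of 431). The count of long lower genes was between 176 and 250 when 1 of the 4 arrays was left out.

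The 6 longest called genes were all lower. They were Ptprd (2271 kb, -3.20), the adhesion protein Lsamp (2197 kb, -2.02), the lipoprotein receptor relative Lrp1b (2058 kb, -0.86), Dlg2 (1973 kb, -1.02), Csmd1 (1643 kb, -1.26) and the neurexin Nrxn3 (1612 kb, -1.76). Lrp1b lost its call without DMSO_2 (adjusted p up to 0.235). Length alone did not decide the call. Of the long genes in the highest tertile of DMSO level, 88 were not called, among them Cntnap2, a neurexin relative of 2241 kb, which read 7.83, 8.58, 8.10 and 8.45 and changed by 0.07 ± 0.17 (adjusted p = 0.839). Macrod2, of 1998 kb, read 9.97, 9.59, 10.34 and 9.51 and changed by 0.15 ± 0.23 (adjusted p = 0.75). Short genes supplied large falls too: Fabp7 spans 3.528 kb, Sox2 2.467 kb and Aldoc 4.709 kb. The 6 long genes called higher were Kcnip1 (0.85), Cfap54 (0.74), A330008L17Rik (0.69), Cacna1a (0.60), Dock2 (0.48) and Trpm3 (0.43).

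**Figure D4:**
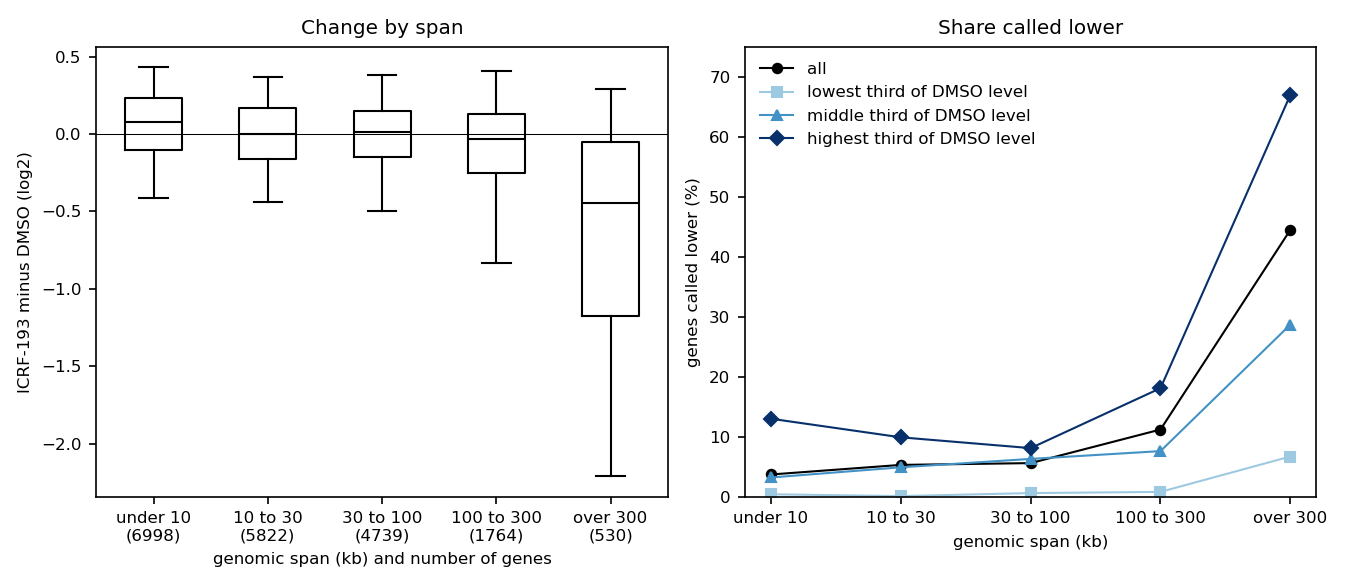
Left, change with ICRF-193 at TN day 5 (vertical axis, log2) in 5 classes of genomic span (kb, number of genes in brackets); boxes show the quartiles and median, whiskers the 5th and 95th percentiles. Right, share of genes called lower (vertical axis, %) in the same classes, for all genes and for tertiles of DMSO level; over 300 kb it is 44.5% for all genes and 67% in the highest tertile.

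The neurons were treated while they matured, so the change was set beside the wild-type course from TN day 2 to TN day 6, which shares no array with it. Over that course 3324 genes rose (16.7%) and 2366 fell (11.9%). Of the risers, 333 (10%) were lower with ICRF-193 and 131 (3.9%) higher; of the fallers, 375 (15.8%) were lower and 34 (1.4%) higher; of the other 14248 genes, 4% were lower and 2.4% higher. Lower calls were thus more frequent in both moving classes than in the rest. Both calls of a gene use the same estimate of its spread, and the classes were not matched for level. The part of either in these shares was not tested. Among risers over 300 kb 57.8% (126 of 218) were lower, and among shorter risers 6.6%. Among fallers over 300 kb 45.2% (28 of 62) were lower, and among shorter fallers 15.1%. Quantile normalization reversed the majority among the risers, to 264 lower and 296 higher, and the 333 became 164 without DMSO_2 and 193 without ICRF193_1.

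In cortical neurons ICRF-193 lowered 2726 genes (13.7%) and raised 1938 (9.72%). Of the 1271 genes lower at TN day 5, 774 (60.9%) were also lower in cortical neurons, which is 28.4% of the cortical losses; of the 501 higher, 149 (29.7%) were also higher, 7.7% of the cortical gains. The comparisons share no array, but their calls use the same estimate of the spread of each gene. Across genes the changes correlated at a Spearman rho of 0.49, given as a description. Of the 236 long genes lower at TN day 5, 205 (86.9%) were lower in cortical neurons. Of all 530 genes over 300 kb, 62.8% were lower there. Adgrl3 changed by -4.13 at TN day 5 and -3.95 in cortex, Nrg3 by -3.25 and -3.57, and Erbb4 by -3.07 and -3.87. Of the adhesion list 29 of 51 were lower at TN day 5 and 32 in cortex. Of the 30 mitosis genes 20 were lower at TN day 5 and 30 in cortex.

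The difference of the 2 responses was tested for each gene, and 871 genes (4.37%) were called, 535 with the more positive change at TN day 5 and 336 with the more negative; centring each array on its median turned this to 459 and 548. Sox2 changed by -3.67 at TN day 5 and -0.46 in cortex, a difference of -3.21 (adjusted p = 2.38e-06). Ebf1 changed by -3.24 and 0.01, a difference of -3.25 (adjusted p = 2.81e-09). Fabp7 changed by -5.23 and -2.15, a difference of -3.08 that was not called without DMSO_2 (adjusted p = 0.00729 with all arrays and 0.0705 without). In cortex Fabp7 was called lower, and Sox2 (adjusted p = 0.136) and Ebf1 were not called. The largest positive differences belonged to genes that fell in cortex, such as Mfge8, a secreted protein of phagocytosis (0.16 and -4.10), Slco1c1, a thyroid hormone transporter (0.14 and -3.51), and Pdgfra, a receptor of oligodendrocyte precursors (-0.52 and -3.75). Slco1c1 had a DMSO mean of only 4.68 at TN day 5, against a median of 6.65 over all genes, so a fall could hardly have been seen there. Chodl and Calb1 rose in cortex by 3.24 and 2.96 and were not called at TN day 5, at -0.05 and 0.15. Of the neurogenic factors 9 of 25 had a more negative change at TN day 5 and 1 a more positive one; Pou3f2 fell by 1.70 at TN day 5 and rose by 0.87 in cortex. Of the cholesterol genes 20 of 21 were lower in cortex, with a median of -0.93, and Scd1 changed there by -3.53.

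The knockout removes only the β enzyme, whereas the drug acts on both. At TN day 6 the knockout had 958 genes lower (4.8%) and 1072 higher (5.38%), and at TN day 2 1190 lower (5.97%) and 1094 higher (5.49%). Of the 236 long genes lower with ICRF-193, 162 (68.6%) were lower in the knockout at TN day 6, which is 81.8% of the long genes lower there. At TN day 2, 133 (56.4%) were lower in the knockout. Of all 530 genes over 300 kb, 37.4% were lower in the knockout at TN day 6 and 30.8% at TN day 2. Of the 837 lower genes under 100 kb, 86 (10.3%) were lower and 138 of them higher in the knockout at TN day 6. Over all genes the changes had a Spearman rho of 0.02, given as a description. Of the 51 adhesion genes, 31 were lower in the knockout at TN day 6 and 25 at TN day 2. Adgrl3 changed by -4.13 with ICRF-193, by -2.46 in the knockout at TN day 6 and by -1.40 at TN day 2. Ebf1 changed by -3.24, -1.86 and -1.59 in the same order. Bcl11a changed by -1.65 with the drug and by -1.51 in the knockout at TN day 6.

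Many cell cycle and progenitor genes went opposite ways with the drug and in the knockout at TN day 6. At TN day 6, 29 of the 30 mitosis genes were higher in the knockout and 0 lower, with a median of 1.07 against -0.78 with ICRF-193. The difference between drug and knockout was called for 28 of the 30, all negative. At TN day 2, 12 of the 30 were higher in the knockout. Top2a rose by 1.78 in the knockout and changed by -2.45 with the drug, a difference of -4.23 (adjusted p = 5.97e-09). Sox2 rose by 1.57 in the knockout, a difference of -5.23 (adjusted p = 5.97e-09), and Fabp7 had a difference of -6.26 (adjusted p = 4.34e-06) although its change of 1.03 in the knockout was not called. Of the 25 progenitor genes, 13 were higher and 1 lower in the knockout at TN day 6, and the difference from the drug was called for 15, all negative. At TN day 2 the knockout had 5 of them higher and 6 lower, with a median of -0.39, so the opposite direction did not hold there. Top2b itself fell by 2.31 in the knockout and was not called with the drug, a difference of 2.12 (adjusted p = 0.000132). Asic4 and Chrna5 rose in both, by 1.37 and 1.36 with ICRF-193 and by 2.09 and 2.08 in the knockout at TN day 6.

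In all, 1410 genes (7.07%) differed between the drug and the knockout at TN day 6, 1034 of them with the more negative change under the drug, and 2086 (10.5%) at TN day 2, 1378 of them with the more negative. Under quantile normalization these splits were 913 of 1690 and 1478 of 2859, and with each array centred on its median 737 of 1573 and 1248 of 2116. The count at TN day 6 was 661 without DMSO_2 and 908 without ICRF193_1, and that at TN day 2 was 1195 without DMSO_2 and 525 when only the arrays compared were fitted. The stages also differ, TN day 5 for the drug and TN days 6 and 2 for the knockout, and stage and treatment cannot be told apart here.

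**Figure D5:**
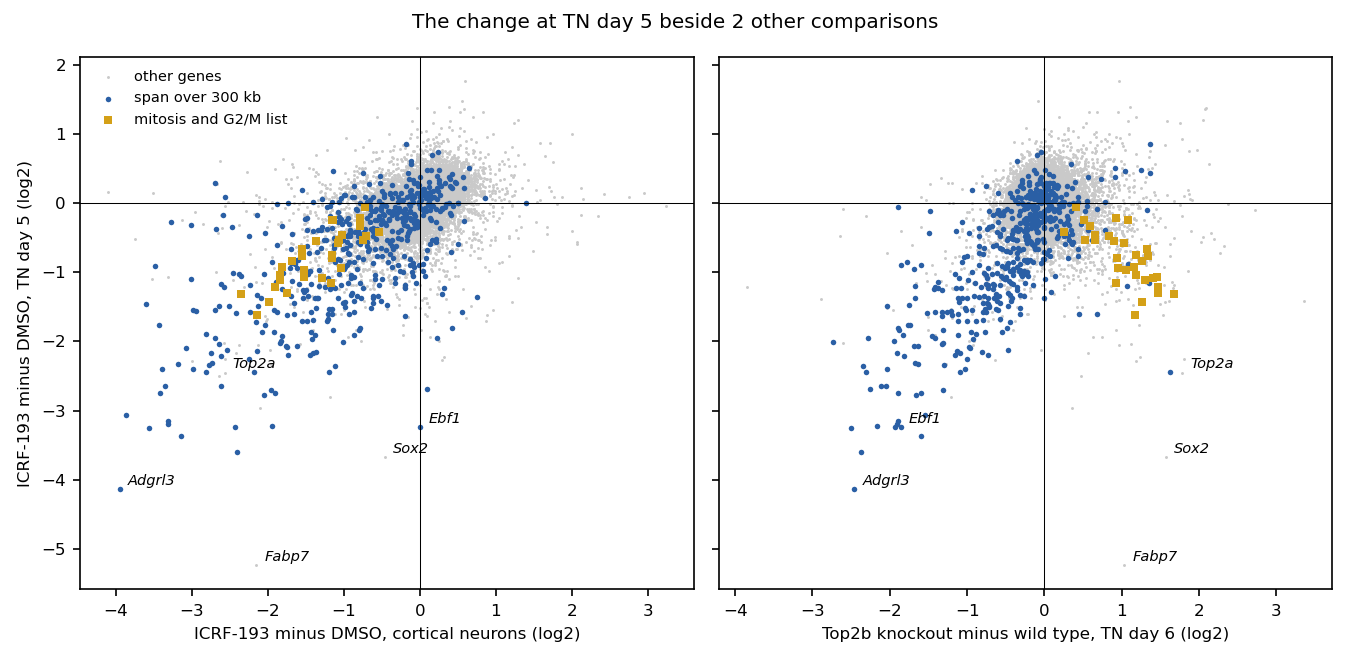
Change with ICRF-193 at TN day 5 (vertical axes, log2) against that in cortical neurons (left) and against the Top2β knockout at TN day 6 (right; horizontal axes, log2), 1 point per gene. Blue points span over 300 kb and tend to the lower left in both panels, and the yellow squares of the 30 mitosis genes lie at negative values in cortex and at positive values in the knockout.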

How the data were processed

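Total RNA was measured on 28 Affymetrix whole-transcript arrays in 12 groups. The authors deposited 1 log2 value for each of 35556 probe sets and array; the submitters' processing notes name oligo 1.14.0. How probes were summarized and the base of the logarithm were not given in the sources used here, and base 2 was read from the range of 1.963 to 13.99, and every log2 change rests on that. No further normalization was applied.

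Of the probe sets, 21789 had 1 gene symbol, 1621 had several and 12146 had no entry; the first kind was used, and of the 999 genes with several probe sets the brightest on average stood for the gene. The files name no genome build, so no positions are given for probe sets or genes; only promoter windows carry coordinates, those of the RefSeq table.

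One mean per group was fitted over the 28 arrays (limma 3.58.1, R 4.3.3, 16 residual and 4.87 prior degrees of freedom), two-sided, so that 12 groups shared the spread of each gene. Only 2 arrays a group limit the precision. The script was tested on simulated data. Differences between responses were contrasts of contrasts in that fit.

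Named genes are the 12 largest rises and falls among called genes without overlap, the largest rise and 3 largest changes among the called members of each list (the largest change where none was called), all topoisomerases, 5 differences each way for each comparison of responses, and the 6 longest called genes. The markers of cell types were listed separately. Where 5 or fewer members of a list were called, the others of them are also named, chosen after their values were seen. So were the genes whose promoters are shown, the named long genes that were not called or were called higher, and Sox1 and Sox3. The groups, members and lists were chosen with earlier results of these data known, and 651 of 692 listed symbols were measured. Alternatives were a replicate block, only the arrays compared, quantile normalization, median centring, array weights, an intensity trend, leaving out the lowest tertile of mean expression, the mean of probe sets, and leaving out each array.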

Additional observations from a re-analysis of the deposited data

Results flagged for a closer look

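Each value here is a difference of 2 responses that passed limma's test of that difference: the ICRF-193 change at TN day 5 minus the change under the other comparison, on the log2 scale.

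Against ICRF-193 in cortical neurons, 871 genes differed. The most negative were Chodl (-3.28), Ebf1 (-3.25), Sox2 (-3.21), Fabp7 (-3.08) and Calb1 (-2.82). The most positive were Mfge8 (4.27), Slco1c1 (3.64), Kcnj2 (3.24), Pdgfra (3.23) and Luzp2 (3.0). Chodl and Calb1 were there because they rose in cortex, and Luzp2 and Slco1c1 because they fell there. None of these 4 was called at TN day 5. Their DMSO means there were low, at 5.09, 4.83, 5.25 and 4.68 in that order, against a median of 6.65 over all genes. A fall of Luzp2 or Slco1c1 could hardly have been seen at such levels.

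Against the Top2β knockout at TN day 6, 1410 genes differed. The most negative were Fabp7 (-6.26), Sox2 (-5.23), Sfrp2 (-4.77), Top2a (-4.23) and Gpc3 (-4.06). The most positive were Tac1 (2.64), Nxf3 (2.51), Lpl (2.17), Top2b (2.12) and Rit2 (1.83). Nxf3 had a DMSO mean of only 4.16 at TN day 5, so a fall could hardly have been seen there. Sfrp2, an antagonist of Wnt ligands, fell by 1.41 with ICRF-193 and rose by 3.36 in the knockout.

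Against the knockout at TN day 2, 2086 genes differed. The most negative were Prss35 (-4.48), Fabp7 (-4.32), Sulf1 (-4.19), Nfib (-4.19) and Gpc3 (-4.16). The most positive were Chrna5 (2.25), Top2b (2.22), Crb1 (2.13), Asic4 (1.78) and Ngfr (1.6). Nfib, a transcription factor of glial and neuronal differentiation, fell by 2.96 with ICRF-193 and rose by 1.22 in the knockout. The knockout groups were of other stages than TN day 5, and the part of the stage in these differences was not tested.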

How the results depend on the processing

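The 1772 calls at TN day 5 became 385 when only the 4 arrays were fitted and 742 with array weights, and 684 to 2291 when 1 array was left out (684 without DMSO_2, 868 without ICRF193_1). The other alternatives gave 1658 to 2159. Leaving out 1 array gave 684 to 1004 differences from cortex, 661 to 1817 from the knockout at TN day 6, 1195 to 2080 from the knockout at TN day 2 (525 with only the arrays compared), 164 to 373 lower genes among those that rose in the wild-type course, and 176 to 250 lower genes over 300 kb. With 1 array left in a group, that array is assumed to vary like the other groups.

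Among the named genes and differences no called value changed sign, and other genes were not checked for this. Of the 18 named genes not called, 10 had a change of either sign over the alternatives. An alternative that left a gene out was not counted for that gene. The fit without the lowest tertile of mean expression held 93 of the 100 named genes called. Of the 100 named genes called, 62 kept their call under all 12 alternatives; 33 lost it with only the arrays compared and 23 without DMSO_2. Of the 30 named differences 28 kept theirs; Sulf1 against the knockout at TN day 2 lost it when other arrays were left out (adjusted p = 0.0607), as did Fabp7 against cortex without DMSO_2 (0.0705).

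The arrays share replicate numbers, but the labels do not say that a number pairs them, and with 2 pairs the deviations from the group means correlated at 0.38. A replicate block gave 2159 calls (681 higher, 1478 lower), which include all 1772, and 1045, 1731 and 2430 differences from cortex and from the knockout at TN days 6 and 2. The number of arrays limits every value.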

Other observations

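Olfactory and vomeronasal receptor genes, a family chosen after the data were seen, are normally silent in neurons of this kind. Of 1190 measured members, 66 (5.5%) were called higher with ICRF-193 and 1 lower, with a median change of 0.18, against 2.51% called higher and a median of 0.02 over all genes. Their median DMSO level was 4.22, against 6.65 over all genes. Genes of low level shifted in a like way: of those under 10 kb in the lowest tertile of DMSO level, 3.7% were called higher, with a median of 0.15. Under quantile normalization 35 of the 1190 receptor genes were called higher, a smaller share than the 960 of all 19938 genes, and 56 with each array centred on its median.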
